A study of Homo sapiens with 5 samples.

Results

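The immediate early genes of ERK signalling were examined in HUDEP-2 cells labelled as ERF knockout and as wild type. They were the rows of the authors' deposited table whose gene name was EGR1, FOS, FOSB, JUN, JUNB, JUND, IER2, IER5, KLF10 or MYC, and all 10 were among its 11976 genes. Bulk RNA-seq of 5 libraries underlies the table. The labels give 3 libraries as a knockout of ERF, an ETS-domain repressor, in HUDEP-2 cells, an immortalised line of erythroid progenitors obtained from cord blood. The 2 libraries labelled wild type are given as the same line, and their titles carry the letters SCR, which no label explains. The sources used here give neither the position of the edit nor whether the cells labelled knockout are a clone or a pool. The table compares the groups and holds no value per library, so no level per library, SD or depth can be given. Its name carries the word Pre, which the labels do not explain either. Whether libraries of a group were separate cultures is not stated, so the spread behind the p-values is that of these libraries only and may be technical.

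Immediate early genes are transcribed within minutes of a signal, from transcription factors already present in the cell. The kinase ERK phosphorylates ETS-domain factors such as ELK1, which sit beside the serum response factor SRF on CArG boxes, and it phosphorylates ERF, which then leaves the nucleus. The products include EGR1, a zinc-finger activator, the FOS and JUN proteins, which pair to form the transcription factor AP-1, and MYC, which drives growth and keeps erythroid progenitors dividing.

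The sign of every difference rests on an assumption. The header names no reference group, so the sign was set to make HBG2, a γ-globin gene, higher in the libraries labelled knockout, as the series title implies. On this sign the authors' deposited table gives HBG2 a log2 fold change of 1.88 ± 0.22, where ± is the standard error (SE) throughout. ERF, the target of the knockout, then goes the same way, with RNA 1.85-fold above wild type in the libraries labelled knockout, at 0.89 ± 0.07 in the authors' deposited table. This goes against the label, although RNA level does not show whether an edited transcript encodes protein. Read the other way, ERF and HBG2 are lower in the libraries labelled knockout and each direction below is exchanged. Each SE was derived here from F, and intervals are 95% intervals. All 13 erythroid markers were measured, between 6.90 and 12.48 log2 CPM, the log2 of counts scaled to library size. At an adjusted p below 0.05, 9 of them were higher and 0 lower, whereas 24.9% of all genes were called higher and 25.9% lower. None of 5 lymphoid and 1 of 9 granulocyte and monocyte markers were in the authors' deposited table, the latter LYZ at 0.48 log2 CPM. Of 6 megakaryocyte markers 1 was measured, ITGA2B at 7.26 log2 CPM, and it was not past the threshold. Mast cell and basophil markers, of which some were measured at high levels, are given further below.

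The promoters of 4 members are shown because they set the largest difference beside smaller ones and beside a member that was not called. EGR1 had the largest fold change of the 10, FOSB and JUNB were also higher, and IER2 was not past the threshold. Each run holds the bases from 250 to 11 before the RefSeq gene start (GRCh38.p14, plus strand). Capitals mark CArG boxes and GGAAG, a form of the ETS core GGAA, or CTTCC where it lies on the other strand. Other GGAA or TTCC sites stay in lower case.
EGR1, chr5:138465229-138465468: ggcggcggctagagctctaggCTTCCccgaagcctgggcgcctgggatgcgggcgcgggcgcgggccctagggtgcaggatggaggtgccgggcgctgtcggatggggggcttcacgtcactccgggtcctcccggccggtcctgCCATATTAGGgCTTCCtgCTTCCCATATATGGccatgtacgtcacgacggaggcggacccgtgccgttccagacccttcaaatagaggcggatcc
FOSB, chr19:45467746-45467985: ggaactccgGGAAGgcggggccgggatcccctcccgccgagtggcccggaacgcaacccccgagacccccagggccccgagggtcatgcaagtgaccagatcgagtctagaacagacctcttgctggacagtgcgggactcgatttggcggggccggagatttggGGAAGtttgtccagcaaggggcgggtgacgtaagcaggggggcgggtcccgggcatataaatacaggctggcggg
JUNB, chr19:12791236-12791475: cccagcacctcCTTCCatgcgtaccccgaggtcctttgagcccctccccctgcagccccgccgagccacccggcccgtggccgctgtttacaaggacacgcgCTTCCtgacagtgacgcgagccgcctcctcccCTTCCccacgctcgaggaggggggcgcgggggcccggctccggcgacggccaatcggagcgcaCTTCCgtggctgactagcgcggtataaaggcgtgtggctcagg
IER2, chr19:13150161-13150400: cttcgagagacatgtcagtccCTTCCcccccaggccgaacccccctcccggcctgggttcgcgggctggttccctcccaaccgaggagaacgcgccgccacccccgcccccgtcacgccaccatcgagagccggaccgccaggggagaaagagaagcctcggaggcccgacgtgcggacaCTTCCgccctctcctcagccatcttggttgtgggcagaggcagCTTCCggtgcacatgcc

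In the EGR1 sequence, 2 CArG boxes lie close together. CCATATTAGG spans the bases 105 to 96 before the start and CCATATATGG those 83 to 74 before it. Between them GGAAG occurs on the other strand at 94 to 90 and at 87 to 83, the last sharing its final base with the second box. Of the 8 members with a RefSeq promoter, EGR1 alone held a CArG box in its window of 300 bases. The window runs from 250 bases before the start to 50 after it. Boxes further away were not looked for, so the other members may hold them there. A CArG box was found in 1.29% of 35116 promoters of this length on either strand, and 2 or more in 0.0313%. GGAAG is far more common, in 71.9% of promoters and in 6 of the 8 members, and IER2 holds it 3 times. Other motifs were looked for on both strands of the same windows. TATAAA was found in 3 members, FOS, FOSB and JUNB, against 11.5% of all promoters, and the GC box GGGCGG in 5 against 45%. The AP-1 site TGACTCA, at 4.95% of promoters, was in none of the 8. The cyclic AMP element TGACGTCA was in JUND and in 1.85% of promoters, and the EGR motif GCGNGGGCG was in EGR1 and in 9.43%. A match describes the letters, not binding. RefSeq and GENCODE place the start of JUN 280 bases apart and that of FOS 54 bases apart, so for these genes the window depends on the annotation.

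Most of the transcription factor genes among the members were higher in the libraries labelled knockout, and the differences were graded. Of the 10 members, 6 were called higher and 2 lower at an adjusted p below 0.05 in the quasi-likelihood F test by the authors, and 2 were not called. The same rule called 50.9% of all genes, 24.9% higher and 25.9% lower. At least 2-fold differences were found in 4 members, all higher, whereas 3.27% of all genes were called with that much, 1.01% higher and 2.26% lower. The median log2 fold change was 0.66 over the members and -0.00186 over all genes. In bulk RNA, fewer cells with a transcript and less transcript per cell cannot be told apart.

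**Figure D1:**
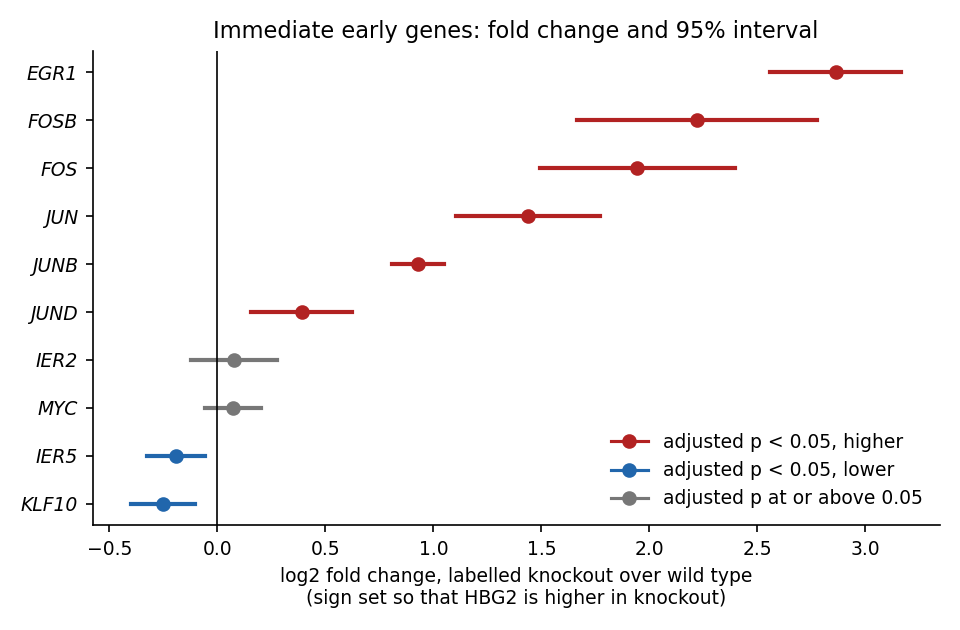
Log2 fold change of each member, labelled knockout over wild type, from the authors' deposited table (points) with the derived 95% interval (lines), where the sign was set through HBG2. EGR1 stands at 2.86 and KLF10 at -0.25, and the intervals of IER2 and MYC include 0.

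EGR1, the zinc-finger activator, had the largest fold change of the members. Libraries labelled knockout held 7.27-fold more EGR1 RNA, with a 95% interval of 5.89 to 8.98. On the log2 scale it stands at 2.86 ± 0.14 in the authors' deposited table (quasi-likelihood F test, adjusted p = 2.17e-07), which ranked 4 among the 11976 genes, counted from the highest. Its mean over all libraries was 61.0 CPM in the authors' deposited table. If the 5 libraries weigh equally in that mean, it corresponds to 12.8 CPM in wild type and 93.2 CPM in knockout, or, with the opposite sign, to 126 CPM in wild type and 17.4 CPM in knockout. These group levels are implied by the mean and the fold change and are not measured values. EGR2, a zinc-finger relative, stood at 1.14 in the authors' deposited table, where EGR3 and EGR4 were looked for by name and not found. NAB2, a corepressor that EGR1 induces and that binds EGR proteins, stood at 0.25 and its relative NAB1, not past the threshold, at 0.03 in the authors' deposited table. EGR2, NAB1 and NAB2 were picked from the fixed lists after their values were seen.

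The FOS genes encode AP-1 subunits that must pair with a JUN protein to bind DNA. FOSB was 4.66-fold higher (interval 3.17 to 6.86), or 2.22 ± 0.25 on the log2 scale of the authors' deposited table (quasi-likelihood F test, adjusted p = 6.10e-05). FOS was 3.85-fold higher (interval 2.81 to 5.27), or 1.95 ± 0.20 in log2 units of the authors' deposited table (quasi-likelihood F test, adjusted p = 3.81e-05). The remaining FOS family genes, FOSL1 at 1.28 and FOSL2 at 0.70, were also higher in the authors' deposited table, which makes 4 of 4 measured. FOSL2 was picked after its value was seen.

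All 3 JUN genes were higher, with the fold change falling from JUN through JUNB to JUND. JUN, which can pair with itself or with FOS proteins, was 2.71-fold higher (interval 2.15 to 3.42), or 1.44 ± 0.15 in log2 units of the authors' deposited table (quasi-likelihood F test, adjusted p = 3.68e-05). JUNB, a weaker activator than JUN, was 1.90-fold higher (interval 1.75 to 2.07). The authors' deposited table puts it at 0.93 ± 0.05 on the log2 scale (quasi-likelihood F test, adjusted p = 8.39e-07). JUND, which is transcribed at a steady level in many cells and responds least to growth signals, was 1.31-fold higher (interval 1.12 to 1.54). It stood at 0.39 ± 0.10 in the authors' deposited table (quasi-likelihood F test, adjusted p = 0.0104), and at a threshold of 0.01 it was not called. The intervals of JUN, JUNB and JUND did not overlap, whereas those of EGR1 and FOSB, of FOSB and FOS, and of FOS and JUN did. The interval of EGR1 lay above those of FOS and JUN, while FOSB, FOS and JUN overlapped one another.

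**Figure D2:**
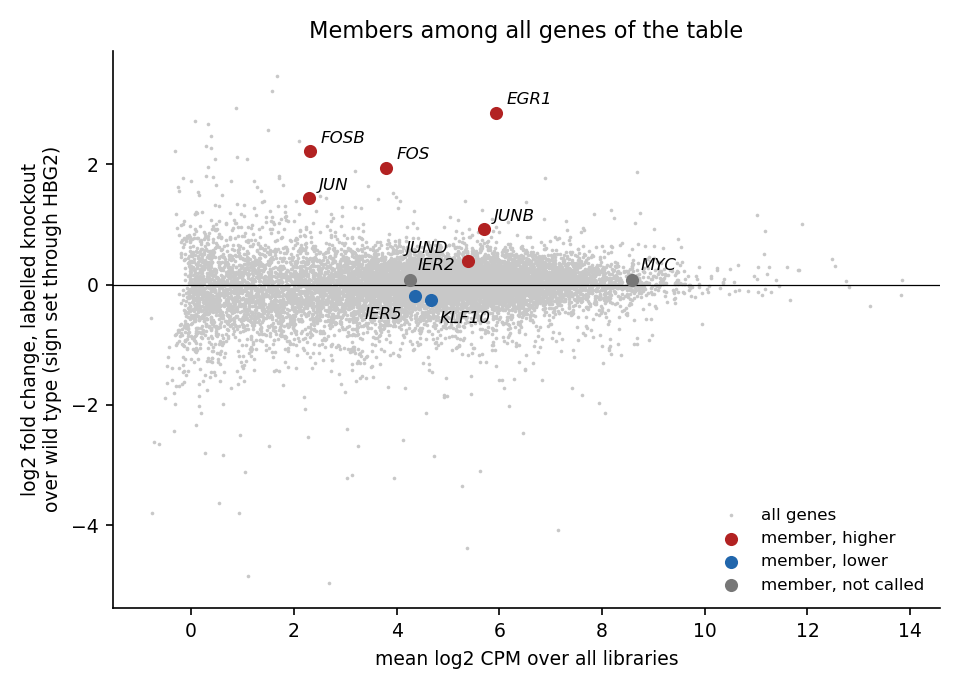
Log2 fold change (vertical axis) against mean log2 CPM (horizontal axis) for all 11976 genes of the authors' deposited table in grey, with the members coloured by call. EGR1, at 5.93 log2 CPM, lies apart from genes of similar expression, while IER2, IER5, KLF10 and MYC lie in the band of small differences around 0.

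The other 4 members showed small differences. MYC, the growth-promoting factor and the most abundant member, stood at 0.07 ± 0.06 on the log2 scale of the authors' deposited table (quasi-likelihood F test, adjusted p = 0.319). Its interval, -0.06 to 0.20 on the log2 scale, leaves room for a rise of up to 1.15-fold. IER2, a short nuclear protein, stood at 0.08 ± 0.09 in the authors' deposited table (quasi-likelihood F test, adjusted p = 0.492), with an interval of -0.12 to 0.27. IER5, a regulator of heat shock factor HSF1, was 1.14-fold lower, at -0.19 ± 0.06 in the authors' deposited table (quasi-likelihood F test, adjusted p = 0.0231). KLF10, a zinc-finger repressor that TGF-beta induces, was 1.19-fold lower, at -0.25 ± 0.07 in the authors' deposited table (quasi-likelihood F test, adjusted p = 0.00959). With a threshold of 0.01 only KLF10 of this pair was called. Neither pair, IER2 and MYC nor IER5 and KLF10, could be ordered, because the intervals within each overlapped.

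Levels of the members differed widely. Per kilobase of exon, taken from GENCODE gene models, mean expression over all libraries was 128 CPM for MYC, 28.5 for JUNB, 22.5 for JUND and 19.5 for EGR1, against a median of 5.80 over 10634 coding genes. KLF10 at 6.36, IER2 at 6.22, IER5 at 4.90 and FOS at 4.28 CPM per kilobase lay near that median. JUN at 1.38 and FOSB at 0.893 CPM per kilobase were the lowest members. The members of greatest fold change thus include both abundant (EGR1) and scarce (FOSB, JUN) transcripts on this scale, and the most abundant member, MYC, was not past the threshold.

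The precision of the members also differed, as the plot of standard errors shows. For EGR1 the standard error was 0.14, while the median over 2188 genes within 0.5 log2 CPM of it was 0.05. FOS, at 0.20, and FOSB, at 0.25, were likewise above the medians of 0.08 and 0.11 of genes at their level. For JUNB, at 0.05, and IER5, at 0.06, the standard error was close to those medians, 0.05 and 0.07. JUND had 0.10 against 0.06. JUNB and JUND, at a mean of 5.70 and 5.39 log2 CPM, have F statistics of 291 and 13.8 in the authors' deposited table, and they differ both in fold change (0.93 and 0.39) and in SE. Standard errors of genes with large fold changes also hold the counting error of the group in which the gene is scarce. The part of this error, or of spread between libraries, in the values of EGR1, FOS and FOSB was not tested.

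**Figure D3:**
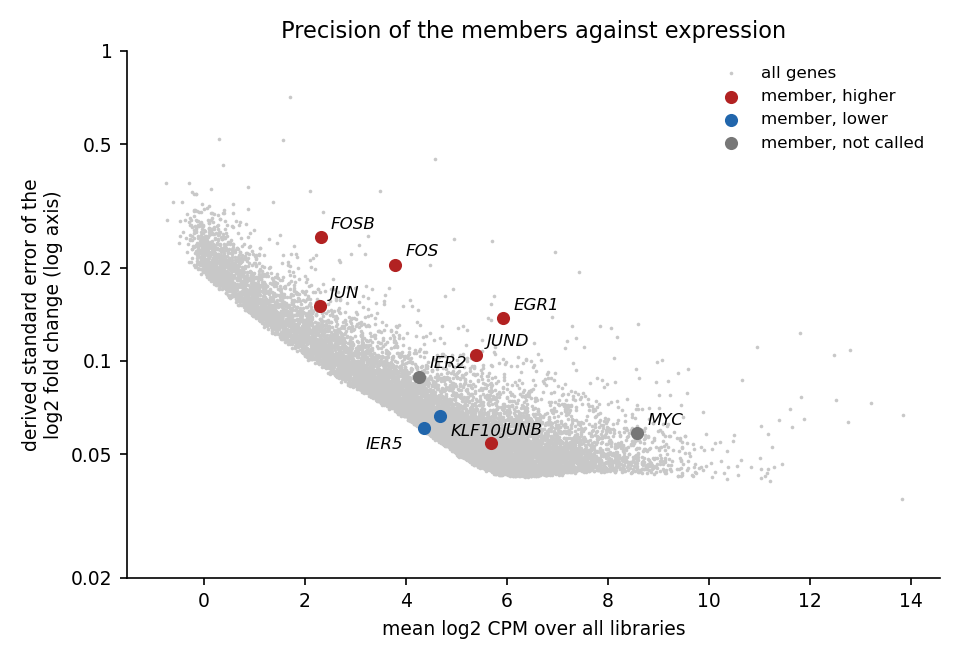
Derived standard error of the log2 fold change (vertical, log axis) against mean log2 CPM (horizontal axis) for all genes in grey and the members coloured by call. EGR1 (0.14), FOS (0.20) and FOSB (0.25) lie above most genes of their level, whereas JUNB (0.05) lies within the band.

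Gene structure is a feature the choice of members did not use. In the GENCODE transcript chosen for each gene, 5 of the 10 members, JUN, JUNB, JUND, IER2 and IER5, have 1 exon, against 1.8% of 10634 coding genes, whose median is 9 exons. EGR1 has 2 exons, MYC 3, and FOS, FOSB and KLF10 have 4. The pentamer ATTTA, the core of AU-rich elements that mark transcripts for rapid decay, was counted in the 3′ untranslated region. It occurs at least once in 9 of the members and in 69.2% of 10496 genes with such a region, and at least 3 times in 6 members and in 41.7% of genes. MYC holds 4 copies, 8.40 per kilobase, and FOS 5 copies, 6.20 per kilobase, against a median of 1.61 per kilobase. EGR1 holds 1 copy, 0.810 per kilobase, IER5 holds 10 copies and IER2 none. Members of large fold change thus stand on both sides of the median, with FOS above it and EGR1 below.

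FOSB and JUNB each lie across from a gene on the opposite strand in GENCODE, ERCC1 and HOOK2. IER2 lies across from the antisense gene AC011446.2, which was not measured. The sources used here do not say whether counting used strand, so reads from such partners cannot be told apart. Neither of the measured partners was past the threshold, with ERCC1 at 0.04 and HOOK2 at -0.12 in the authors' deposited table. The nearest measured genes on each side of the 10 members, by RefSeq order on GRCh38.p14, numbered 20, of which 3 were called higher and 3 lower and 14 were not called, against 50.9% of all genes called. Beside the 6 higher members, 10 of 12 were not called. EGR1 lies between KDM3B, at 0.11, and ETF1, at 0.08, in the authors' deposited table, and neither was called. The exceptions were LSM4 beside JUND, at 0.20, and C14orf1 beyond FOS, at 0.33 in the authors' deposited table. Beside the other 4 members, 4 of 8 were called. STX10 (-0.18) and CCDC130 (-0.31) beside IER2 and AZIN1 (-0.22) beside KLF10, itself lower, were lower in the authors' deposited table. LINC00861, at 2.27 ± 0.43 in the authors' deposited table and at a low 0.38 log2 CPM, was higher on the side before MYC. Between LINC00861 and MYC lie 23 RefSeq genes that were not analysed here. The genes of this paragraph were chosen by position. Those named include every neighbour that was called but only some of those that were not.

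Among 17 other measured AP-1 and partner genes, 4 (23.5%) were higher and 10 (58.8%) lower, and the median log2 fold change was -0.23. Against 24.9% and 25.9% of all genes, the higher share was near the background and only the lower share exceeded it. The lowest of the 17 were stress-response factors that can pair with AP-1 proteins. ATF3, itself an immediate early gene in many cells, was 9.01-fold lower, at -3.17 ± 0.11 in the authors' deposited table (quasi-likelihood F test, adjusted p = 2.92e-08). DDIT3, a factor of the integrated stress response, stood at -2.07, and CEBPB, a leucine zipper factor of stress and inflammation, at -1.79 in the authors' deposited table. The FOS-family relatives FOSL1 and FOSL2 and the small MAF genes MAFF (0.61) and MAFK (0.45) were the 4 higher genes in the authors' deposited table, and these MAF genes were picked after their values were seen.

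Immediate early genes beyond the 10 members also leaned higher. Of 45 measured, 23 (51.1%) were higher and 6 (13.3%) lower, and the median was 0.28, whereas 24.9% of all genes were called higher and 25.9% lower. IL8, a chemokine at a low 0.29 log2 CPM, reached 4.97-fold higher, at 2.31 ± 0.27 in the authors' deposited table. DUSP2, a phosphatase that acts on MAP kinases, stood at 1.64 and ATF3 at -3.17 in the authors' deposited table. Of 16 measured delayed and feedback targets of ERK, 10 (62.5%) were higher and 1 (6.25%) lower, and the median was 0.37. The phosphatase DUSP5, which acts on ERK in the nucleus, stood at 1.72 in the authors' deposited table, at a low 0.78 log2 CPM. IER3, a survival factor, stood at 1.31 and FOSL1 at 1.28 in the authors' deposited table. Both are also counted among the 45 immediate early genes above, and FOSL1 among the AP-1 and partner genes too.

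The factors that act on immediate early promoters differed less. Of 14 measured, 6 (42.9%) were higher and 1 (7.14%) lower, against 24.9% and 25.9% of all genes, and the median was 0.17. SRF, which binds the CArG box, was 1.55-fold higher, at 0.63 ± 0.08 in the authors' deposited table (quasi-likelihood F test, adjusted p = 0.000129). The ternary complex factors ELK3 and ELK1, both higher, stood at 0.59 and 0.35 in the authors' deposited table. Of 26 upstream kinases and adaptors 6 were higher and 6 lower, 23.1% each, near the share over all genes, with a median of 0.09. KSR1, a scaffold of the RAF, MEK and ERK kinases, stood at -0.94, the ERK-activated kinase gene RPS6KA5 at -0.56 and the RAS exchange factor SOS2 at -0.31 in the authors' deposited table. RNA levels do not measure the activity of these kinases.

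**Figure D4:**
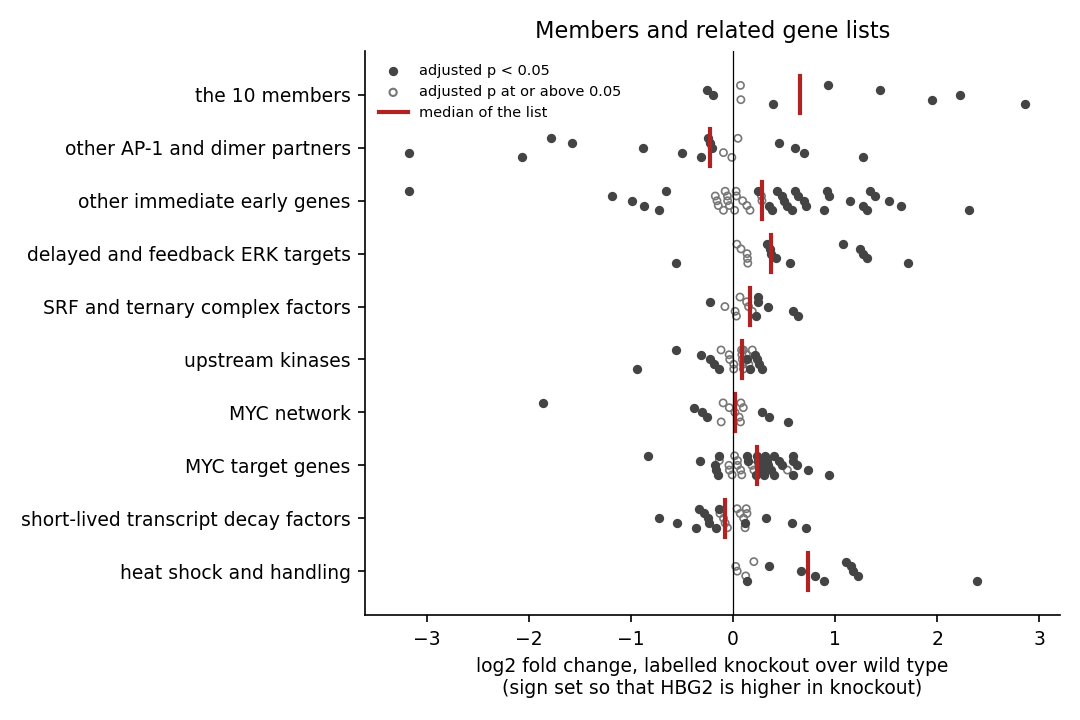
Log2 fold changes from the authors' deposited table for the members and 9 related lists (horizontal axis), where filled points passed the threshold, open points did not and red bars are medians. The medians run from -0.23 in AP-1 partners to 0.73 in heat shock genes, with 0.66 in the members.

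MYC RNA was not past the threshold, and its partners and targets were looked at beside it. Of 15 measured genes of the MYC network 3 (20%) were higher and 4 (26.7%) lower, and the median was 0.02. These shares were near the 24.9% and 25.9% over all genes. MLXIPL, a glucose-responsive relative, stood at -1.86, MXD4, a partner of MAX that opposes MYC, at 0.54 and MXI1, of the same group, at -0.38 in the authors' deposited table. Of 40 measured MYC target genes, however, 22 (55%) were higher and 6 (15%) lower, and the median was 0.23. The nucleolar genes NOP16 (0.94) and GNL3 (0.74) were the highest and the serine enzyme gene SHMT2 (-0.83) the lowest in the authors' deposited table. SHMT2 is also a target of the stress factor ATF4.

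Factors that bind or shorten short-lived transcripts numbered 23 measured, of which 4 (17.4%) were higher and 9 (39.1%) lower, and the median was -0.08. Over all genes the shares were 24.9% higher and 25.9% lower. ZFP36, which binds AU-rich elements and speeds decay, was 1.64-fold higher, at 0.71 in the authors' deposited table. Its relative ZFP36L1 was 1.65-fold lower, at -0.72, and BTG2, which activates deadenylation, stood at 0.58 in the authors' deposited table. Heat shock genes, which also respond to handling of cells, were higher in 10 of 14 (71.4%) and lower in 0, with a median of 0.73. HSPA1A stood at 2.39 and HSPA1B at 1.23, near-identical copies whose split is uncertain, and HSPH1 at 1.18 in the authors' deposited table. The part of these differences, or of a difference in culture state or harvest, in the values of EGR1 and the AP-1 genes was not tested. Of 7 genes listed as mast cell and basophil markers, 3 were measured (TPSAB1, TPSB2 and GATA2) and 4 were not found. All 3 were higher, at 7.37 to 9.18 log2 CPM in the authors' deposited table, and their part was not tested either. GATA2 is not particular to mast cells and basophils.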

How the data were processed

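Total RNA of 5 HUDEP-2 libraries was sequenced after Trizol extraction and an Illumina TruSeq RNA preparation, per the labels' protocols. Per the submitters' processing notes the tools include edgeR 2.6.12, HTSeq, TopHat2 2.0.4, Cuffdiff and SAMtools, with the build hg19/GRCh37, in roles that are not stated. The authors' deposited table lists, per the file headers, for each gene the log2 fold change, mean log2 CPM, quasi-likelihood F score, p-value and false discovery rate (here adjusted p). The sources used here do not give its filter or normalization. It has 0 columns of values per library, so no model was fitted again. The 3 rows that name no gene hold 21.5% of the CPM and were left out of counts. Depth per library is unknown.

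Deposited fold changes were multiplied by -1. Standard errors are the absolute log2 fold change over the square root of F, with t intervals at the 10.3 degrees of freedom implied by F and p. That is more than the 5 libraries, so each p-value and SE also draws on spread shared over genes. These SEs and intervals are approximations, since the edgeR fit by the authors may shrink fold changes. Calls use the deposited adjusted p below 0.05. Python 3.11.15, scipy 1.17.1 and pandas 2.3.3 were used, and the formulas were tested on simulated data. Sequences come from RefSeq (GRCh38.p14, 8 of 10 members matched) and GENCODE 29, whose build differs from that of the files. For each gene the principal coding transcript with the longest coding sequence was used.

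The members and the 9 lists were chosen with earlier results of these data known. Some genes stand in several lists, so the counts of the lists are not independent. All members were named, and from each list the 3 called genes of largest absolute fold change. Alternatives were the opposite sign, another adjustment, threshold, centring, expression minimum and fold minimum.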

Additional observations from a re-analysis of the deposited data

How the results depend on the processing

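No paired analysis was possible because the table holds no values per library, and for the same reason no library could be left out. With the opposite sign, the log2 fold changes of the members are -2.86 for EGR1, -2.22 for FOSB, -1.95 for FOS, -1.44 for JUN, -0.93 for JUNB, -0.39 for JUND, -0.0771 for IER2, -0.0732 for MYC, 0.19 for IER5 and 0.25 for KLF10, with 2 members higher and 6 lower. At a threshold of 0.01, 1 member was lower instead of 2, while JUND (adjusted p = 0.0104) and IER5 (adjusted p = 0.0231) lost their calls. With a minimum of 2-fold, 4 members were higher and 0 lower, and over all genes 392 were called, 121 higher and 271 lower, in place of 6092, 2987 and 3105, because the rule admits fewer genes. Adjusting over genes alone, centring on all genes or on well-expressed genes (from 5 log2 CPM), and a minimum of 1 log2 CPM each left the direction and call of all 10 members as reported. The centring on well-expressed genes subtracted 0.03. Lower calls went from 6 to 3 for upstream kinases and from 6 to 2 for MYC target genes at a threshold of 0.01. The unknown depth of the libraries and the assumed sign limit every value.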
